A study of Rattus norvegicus with 20 samples.

Results

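Lecticans are the proteoglycans that bind hyaluronan in the extracellular matrix of the brain: aggrecan (Acan), brevican (Bcan), neurocan (Ncan) and versican (Vcan). Probe sets were taken as members when their gene symbol in the authors' annotated table of expressed genes was one of these names or an older form of it. This gave 6 of the 31099 probe sets on the array, for 3 of the 4 genes: 1 probe set for Acan, 1 for Bcan and 4 for Vcan. Ncan is not analysed here.

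The cells were rat subplate neurons, taken at embryonic day 17 from the rear of the neocortex and collected by panning with an antibody against the neurotrophin receptor p75. In cocultures, coverslips of these neurons were held by dots of wax above densely plated feeder cells from the cortex for 24 h or 96 h. Controls lay for the same times in wells with wax and medium but no feeder cells. Each of the 4 groups (coculture 24 h, control 24 h, coculture 96 h, control 96 h) had 5 arrays, labelled as biological replicates numbered 1 to 5, and each array carried RNA pooled from several coverslips after repeated amplification. No strain or sex is given in the labels. The feeder cells were those that did not stick to the panning dish, so cells of other types were present in the coculture wells. All groups grew without serum in medium that held added chondroitin sulfate A, the sugar chain that lecticans themselves carry, so the controls were exposed to it too.

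A lectican has a globular head that binds hyaluronan, a central stretch that carries chondroitin sulfate chains, and a globular tail that binds tenascins. Link proteins lock the head onto hyaluronan, and with tenascin-R the complex forms perineuronal nets, the dense matrix coats around some neurons. Proteases of the ADAMTS family cut the core proteins, and the family is known for limiting the growth of axons and the rearrangement of synapses in the postnatal brain.

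The deposited values are ratios: each probe set's signal in an array over its median across the 20 arrays. A ratio of 1 is therefore the middle of that probe set's own range, and the levels of different probe sets cannot be ranked. Differences were tested on log2 ratios with limma, and a probe set was called where its Benjamini-Hochberg adjusted p over 31042 probe sets was under 0.05. Arrays with the same replicate number deviated together across the groups, so values fitted with that number as a block are given where they change a lectican call or move a count of listed genes, in the comparisons described for them, by over 1.5 times.

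Some properties of the arrays moved with the groups. The 18 probe sets for hybridisation controls read bacterial and phage transcripts added to each sample before hybridisation. They averaged 0.32 ± 0.65 (log2 ratio, SD, n = 5) in cocultures and -0.54 ± 0.67 in controls at 24 h (exact permutation test, two-sided, p = 0.0794). At 96 h they averaged 0.70 ± 0.64 in cocultures and -0.63 ± 0.66 in controls (exact permutation p = 0.0238). Both tests take no account of the replicate numbers. In every same-numbered pair, at both times, the coculture had the higher value. The array numbered 5 had the highest value in each group, and also the lowest mean of the listed neuronal genes (-0.75 and -0.72 in cocultures, -0.36 and -0.18 in controls, at 24 h and 96 h). The subplate label rests on 2 of the 6 markers listed for it, Nr4a2 and Ccn2, since the other 4, among them the gene of p75, are not analysed here. All 10 of the listed pan-neuronal genes were among the expressed genes. Because each array measures all the cells on its pooled coverslips together, fewer cells of a type and less RNA per cell cannot be told apart.

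Acan, the large aggregating proteoglycan that defines many perineuronal nets, was lower in cocultures than in controls at both times. At 24 h it was 7.68-fold lower in cocultures, and at 96 h 3.43-fold lower. It is read by the single probe set 1387355_at (aggrecan 1). The 250 bases before its start are shown in the RefSeq sequence of rat build GRCr8 (chr1:142390701-142390950, plus strand), because Acan was the lectican called at both times:
Acan: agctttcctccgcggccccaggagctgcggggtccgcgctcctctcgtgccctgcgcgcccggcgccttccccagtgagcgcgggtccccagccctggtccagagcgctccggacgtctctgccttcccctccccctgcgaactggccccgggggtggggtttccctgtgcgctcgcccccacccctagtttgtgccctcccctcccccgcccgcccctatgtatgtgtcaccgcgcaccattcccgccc
This stretch is 73.6% G and C, against a mean of 52.2% over 33469 rat promoters of the same length. It held no match on either strand to any of the 4 motifs searched: TGANTCA for AP-1, TGACGTCA for CRE, CANNTG for an E-box and ACAANG for SOX factors. Over all those promoters, 6.34% held the AP-1 motif, 1.59% the CRE, 65.5% an E-box and 36.9% the SOX motif.

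At 24 h the Acan ratios of replicates 1 to 5 were 0.446, 0.265, 0.304, 0.205 and 0.542 in cocultures. In controls at 24 h they were 4.56, 2.78, 2.93, 2.53 and 1.13. The groups did not overlap: the highest coculture lay below the lowest control, which was the control numbered 5. On the log2 scale Acan averaged -1.59 ± 0.57 in cocultures and 1.35 ± 0.73 in controls (SD, n = 5 each), a change of -2.94 ± 0.39 (SE; limma adjusted p = 0.000139). In this comparison 2.1% of all probe sets were called lower and 1.21% higher. Between arrays of the same number the log2 difference was -3.35, -3.39, -3.27, -3.63 and -1.07 for numbers 1 to 5, so the first 4 lay close together and number 5 apart. Without the 4 arrays numbered 5 the change was -3.41 (limma adjusted p = 2.67e-07).

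At 96 h the Acan ratios were 1.15, 0.765, 0.809, 0.595 and 0.444 in cocultures. In controls at 96 h they were 3.09, 3.29, 3.30, 3.09 and 0.866. The groups overlapped in 1 array, the control numbered 5, which lay below a coculture, and cocultures were lower in 5 of 5 same-numbered pairs. Acan averaged -0.48 ± 0.51 in cocultures and 1.30 ± 0.84 in controls, a change of -1.78 ± 0.39 (limma adjusted p = 0.00336). In this comparison 17.9% of all probe sets were called lower. With the mean of the hybridisation controls as a covariate, the change was -1.29 and no longer called (limma adjusted p = 0.0774). At 24 h the change under the same covariate was -2.62 and remained called (limma adjusted p = 0.000343). With the covariate and the replicate block together the standard errors widened and neither was called, with changes of -2.76 ± 0.92 at 24 h (limma adjusted p = 0.519) and -1.51 ± 1.36 at 96 h (limma adjusted p = 0.936).

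The order of the Acan group means, as geometric means of the ratio, was control at 24 h (2.54), control at 96 h (2.46), coculture at 96 h (0.716) and coculture at 24 h (0.331). The controls at the 2 times did not differ beyond their spread (-0.05 ± 0.39, 96 h minus 24 h, limma adjusted p = 1.0). In cocultures Acan was higher at 96 h than at 24 h in 4 of 5 pairs, by 1.37, 1.53, 1.41 and 1.54 in numbers 1 to 4 and by -0.29 in number 5. The mean change of 1.11 ± 0.39 was not called in the fit of all 20 arrays (limma adjusted p = 0.228) and was called with the replicate block (adjusted p = 0.0201). It was also called without the block under the hybridisation covariate (1.25, limma adjusted p = 0.0426) and without the 4 arrays numbered 5 (1.46, limma adjusted p = 0.00082). In that comparison 0.416% of all probe sets were called higher without the block, and 5.57% with it. The coculture effect differed between the times by 1.16 ± 0.55 (96 h minus 24 h), which did not pass after adjustment (limma unadjusted p = 0.0475, adjusted p = 0.887, 0.134 with the block). With array weights it was 1.36 and called (limma adjusted p = 0.00926).

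**Figure D1:**
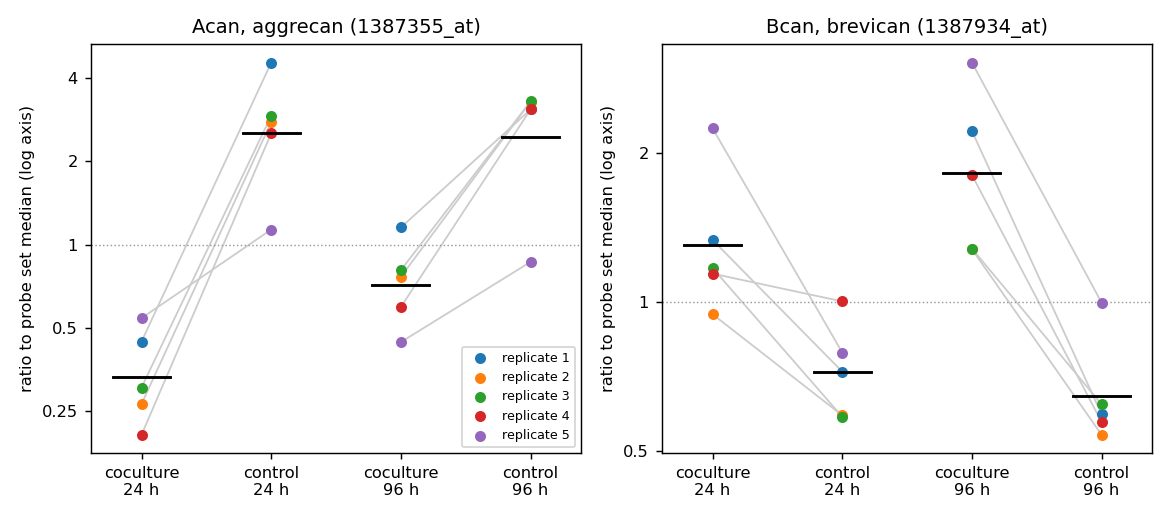
Ratio of Acan (left) and Bcan (right) in each of the 20 arrays on a log axis, with groups along the horizontal axis, 1 colour per replicate number, grey lines joining arrays of the same number and black bars at the geometric means. For Acan all cocultures at 24 h, 0.205 to 0.542, lie below all controls at 24 h, 1.13 to 4.56; for Bcan all cocultures at 96 h, 1.28 to 3.04, lie above all controls at 96 h, 0.54 to 0.997.

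Bcan, a small lectican of the mature brain made by glia and by some neurons, moved the other way: it was higher in cocultures at 96 h, by 2.81-fold. It is read by the probe set 1387934_at (brevican core protein). The 250 bases before its start (GRCr8, chr2:175765315-175765564, minus strand) are shown because Bcan and Acan moved in opposite directions, with a match to the SOX motif in capitals:
Bcan: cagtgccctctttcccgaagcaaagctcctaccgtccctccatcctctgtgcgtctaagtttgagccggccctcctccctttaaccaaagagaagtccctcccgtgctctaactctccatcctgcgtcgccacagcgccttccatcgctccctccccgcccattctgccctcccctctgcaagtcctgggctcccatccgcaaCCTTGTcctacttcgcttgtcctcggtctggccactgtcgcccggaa
The match, CCTTGT, is the motif on the other strand and begins at base -47 relative to the start site. The stretch shown is 61.2% G and C, and held no match to the AP-1, CRE or E-box motifs.

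At 96 h the Bcan ratios of replicates 1 to 5 were 2.21, 1.28, 1.28, 1.80 and 3.04 in cocultures. In controls at 96 h they were 0.594, 0.54, 0.622, 0.573 and 0.997. Every coculture lay above every control, and the control numbered 5 lay above the other 4 controls, which spanned 0.54 to 0.622. Bcan averaged 0.86 ± 0.53 in cocultures and -0.63 ± 0.36 in controls (log2, SD, n = 5 each), a change of 1.49 ± 0.25 (limma adjusted p = 0.000508). Among all probe sets 14.1% were called higher at 96 h. With the hybridisation covariate the change was 0.79 (limma adjusted p = 0.0121), and with covariate and block together it was 1.28 ± 0.67 and not called (limma adjusted p = 0.849).

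At 24 h the Bcan ratios were 1.33, 0.945, 1.17, 1.14 and 2.24 in cocultures. In controls at 24 h they were 0.724, 0.591, 0.587, 1.003 and 0.791. The groups overlapped, since the control numbered 4 lay above the lowest coculture, and cocultures were higher in 5 of 5 same-numbered pairs. The change was 0.85 ± 0.25, with a 95% interval of 0.32 to 1.38, and was not called (limma adjusted p = 0.0726). With the replicate block it was called (adjusted p = 0.000311), in a fit that called 11.9% of all probe sets higher. With the hybridisation covariate the change was 0.39 (limma adjusted p = 0.212).

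The Bcan group means ran in the order coculture at 96 h (1.82), coculture at 24 h (1.30), control at 24 h (0.724) and control at 96 h (0.648). The controls did not differ beyond their spread (-0.16 ± 0.25, 96 h minus 24 h, limma adjusted p = 1.0). In cocultures Bcan was higher at 96 h in 5 of 5 pairs, by 0.48 ± 0.25. This was not called (limma adjusted p = 0.478) except with the replicate number as a fixed block (adjusted p = 0.0374). The difference of the coculture effects, 0.64 ± 0.36, was not called (limma adjusted p = 0.887, 0.0967 with the block).

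Markers of oligodendrocyte precursors, astrocytes and radial glia were on average higher in cocultures, as Bcan was, while Acan was lower. Counts in the marker lists stand beside those of all 17191 expressed probe sets that are no array controls. Of these, 5.28% were called in either direction at 24 h and 38.6% at 96 h. With the replicate block these shares were 38.1% and 63.8%. The measured genes of each marker list had first passed the authors' table of expressed genes, which needed present calls in 10 arrays. Cocultures alone, or controls alone, could supply those calls. The counts therefore describe only the members that passed, and the effect of this selection on their direction was not tested. The 3 measured genes of 7 listed for oligodendrocyte precursors, Pdgfra, Olig1 and Bcas1, were all called higher at both times. Their mean log2 ratio per array spanned 0.85 to 2.04 in cocultures and -3.08 to -1.68 in controls at 24 h, and 0.86 to 2.16 in cocultures and -3.37 to -2.13 in controls at 96 h. The difference was 3.44 at 24 h and 3.91 at 96 h (exact permutation p = 0.00794 at each time, the smallest that 252 splits allow). Cspg4, whose product NG2 defines these precursors, is not analysed here.

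For astrocytes 8 of 10 listed genes were measured with 9 probe sets. Their mean log2 ratio spanned 0.14 to 1.11 in cocultures and -0.72 to -0.17 in controls at 24 h, and 0.64 to 1.40 in cocultures and -0.79 to -0.64 in controls at 96 h. Of the 9 probe sets 2 were called higher at 24 h and 7 at 96 h, and none lower. With the block 5 were called higher at 24 h, and 7 higher and 1 lower at 96 h. The means differed by 0.93 and 1.73 (exact permutation p = 0.00794 at each time). The probe sets of Slc1a3 disagreed: 1368565_at changed by 2.79 at 24 h and 3.32 at 96 h, while 1371130_at changed by -0.045 and -0.25. For radial glia, 4 of 5 probe sets at 24 h and 5 of 5 at 96 h were called higher, with differences in the mean of 2.13 and 2.45 (exact permutation p = 0.00794 at each time).

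The neuronal genes' mean moved less, by -0.20 at 24 h (exact permutation p = 0.357) and -0.42 at 96 h (exact permutation p = 0.0397). The permutation tests of these list means take no account of the replicate numbers. In every same-numbered pair, at both times, the neuronal mean was lower in the coculture. Of the 15 neuronal probe sets none was called at 24 h, and 2 rose and 3 fell at 96 h; with the block 1 rose and 6 fell at 24 h, and 3 rose and 7 fell at 96 h. These shares of the neuronal list are near those of all expressed probe sets at 96 h, and with the block at both times. The mean of the 3 subplate probe sets differed by -0.99 at 24 h (exact permutation p = 0.00794), where none was called and 2 fell with the block. At 96 h it differed by -0.60 (exact permutation p = 0.0635), which was carried by Ccn2 at -1.84 (limma adjusted p = 0.0153), while the 2 probe sets of Nr4a2 changed by 0.061 and -0.031. None of the 8 microglial genes was among the expressed genes named. No probe set of the endothelial and pericyte list, with 1 of 7 genes measured, or of the meningeal list, with 2 of 6, was called at 24 h, and 1 of 2 in each rose at 96 h. With the block 1 of 2 in each rose at 24 h, and 2 endothelial and 1 meningeal at 96 h. The mean differed by 0.39 and 0.86 for the endothelial list (exact permutation p = 0.341 and 0.0238) and by 0.46 and 0.64 for the meningeal list (exact permutation p = 0.00794 at each time), at 24 h and 96 h. Of the meningeal genes, Fn1 changed by 0.78 and 1.10 and Col1a1 by 0.15 and 0.18 at these times. In the interneuron list, with 3 of 7 genes and 4 probe sets, 1 rose at 24 h and 1 fell at 96 h (with the block, 2 rose at 24 h, and 2 rose and 1 fell at 96 h). The part of these markers in the lectican results was not tested.

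Vcan, the versatile lectican of the embryonic brain, is spliced into forms that differ in how much chondroitin sulfate they can carry. None of its 4 probe sets was called at 24 h, and 1 was called lower in cocultures at 96 h. The same probe set was lower at 96 h than at 24 h in cocultures. The array annotates 1371232_a_at and 1388265_x_at as the Vint form of versican, 1388054_a_at as the V3 form, which lacks the chondroitin sulfate stretch, and 1388142_at as versican without a named form. The ending _a_at marks probes shared by alternative transcripts, and _x_at marks a set with some probes that match other sequences. They share a gene and are not independent readings. The 250 bases before the first of 2 listed starts (GRCr8, chr2:22595956-22596205, minus strand) are shown to set Vcan beside the others, with a match to the E-box motif in capitals:
Vcan: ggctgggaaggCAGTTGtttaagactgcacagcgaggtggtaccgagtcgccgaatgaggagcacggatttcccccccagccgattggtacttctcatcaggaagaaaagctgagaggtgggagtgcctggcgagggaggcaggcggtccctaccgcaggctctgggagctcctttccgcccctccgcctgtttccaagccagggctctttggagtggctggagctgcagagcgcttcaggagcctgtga
The match, CAGTTG, begins at base -239 relative to the start site. The stretch shown is 61.6% G and C, close to Bcan, and held no match to the AP-1, CRE or SOX motifs.

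At 96 h the ratios of 1388142_at were 0.598, 0.892, 0.735, 0.70 and 0.476 in cocultures. In controls at 96 h they were 0.964, 1.03, 0.94, 0.998 and 0.818. The groups overlapped at a single coculture, number 2, which lay above the lowest control, and cocultures were lower in 5 of 5 pairs. The change was -0.51 ± 0.17 (limma adjusted p = 0.0291, 1.42-fold lower in cocultures). The call was kept in 4 of the 10 fits that left out a single array of either group at 96 h (adjusted p from 0.00983 to 0.0917). With the hybridisation covariate the change was -0.05 (limma adjusted p = 0.879), and the change is under the 1.5-fold that an alternative rule also asked for.

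The V3 probe set 1388054_a_at had ratios of 0.582, 1.01, 0.861, 0.688 and 0.376 in cocultures at 96 h. In controls at 96 h it had 0.896, 1.29, 1.09, 0.994 and 0.863. Its groups overlapped more, with the coculture numbered 2 above 3 of the 5 controls, and the change of -0.61 ± 0.25 was not called (limma adjusted p = 0.0648, 0.00121 with the replicate block). With the hybridisation covariate it was 0.14 (limma adjusted p = 0.692).

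The Vint probe set 1371232_a_at had ratios of 0.545, 0.944, 0.74, 0.653 and 0.333 in cocultures at 96 h. In controls at 96 h it had 0.963, 1.37, 1.19, 1.04 and 0.656. It was lower in cocultures in 5 of 5 pairs, with a change of -0.74 ± 0.29 (limma adjusted p = 0.0537, 7.32e-05 with the block, which called 27.8% of all probe sets lower). With the hybridisation covariate it was 0.19 (limma adjusted p = 0.473). The set that can match other sequences, 1388265_x_at, had ratios of 1.02, 0.90, 0.723, 0.51 and 0.855 in cocultures at 96 h. In controls at 96 h it had 0.888, 0.982, 1.12, 0.873 and 0.85. It was higher in cocultures in 2 of 5 pairs and changed by -0.26 ± 0.16 (limma adjusted p = 0.197, 0.145 with the block).

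At 24 h the 4 changes were -0.19 ± 0.29, -0.07 ± 0.25, -0.12 ± 0.17 and 0.06 ± 0.16, in the order 1371232_a_at, 1388054_a_at, 1388142_at and 1388265_x_at (limma adjusted p from 0.697 to 0.894). The 95% intervals ran from -0.79 to 0.41 for the widest and from -0.29 to 0.40 for 1388265_x_at. With the hybridisation covariate the signs of the first 3 turned, to 0.41, 0.42 and 0.18. With 1 value per gene, adjusted over 8475 genes, Vcan changed by -0.08 ± 0.19 at 24 h (limma adjusted p = 0.787) and -0.53 ± 0.19 at 96 h (limma adjusted p = 0.0262).

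In cocultures all 4 Vcan probe sets were lower at 96 h than at 24 h in 5 of 5 pairs. The ratios of 1388142_at, given above for 96 h, were 1.18, 1.64, 1.199, 1.17 and 0.955 in cocultures at 24 h, so the times did not overlap. Its change was -0.86 ± 0.17 (limma adjusted p = 0.0131, 0.163 in a fit of these 10 arrays alone), where 0.583% of all probe sets were called lower. The others changed by -0.84 ± 0.29, -0.76 ± 0.25 and -0.62 ± 0.16 in the order 1371232_a_at, 1388054_a_at and 1388265_x_at. Their limma adjusted p was 0.212, 0.191 and 0.0833, and 0.000302, 0.00172 and 0.0135 with the replicate block, which called 8.66% of all probe sets lower.

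In controls the Vcan changes with time, 96 h minus 24 h, were between -0.22 and -0.47. The largest in size was again that of 1388142_at, -0.47 ± 0.17 (limma adjusted p = 0.604). It was called with the block (adjusted p = 0.00579), which called 0.715% of all probe sets lower, and without it under the hybridisation covariate (-0.50, limma adjusted p = 0.0107) and array weights (-0.52, limma adjusted p = 0.00112). The ratios of 1388142_at in controls at 24 h were 1.26, 1.72, 1.36, 1.34 and 1.002. In the fit of all 20 arrays with neither block, covariate nor weights, no lectican was called in this comparison, where 0.0612% of all probe sets were called lower and 0.0838% higher, or for the difference of the coculture effects, where 0.0193% were called in either direction. The differences of the coculture effects in the 4 Vcan probe sets lay between -0.55 and -0.32 (limma adjusted p = 0.887 for each).

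The Vcan probe sets were set against each other within each pair of compared groups, by the difference of their changes. In 12 comparisons these differed by -0.47 to 0.06, and none passed (exact permutation p from 0.0873 to 0.706, adjusted p from 0.582 to 0.706). These tests take no account of the replicate numbers. Within same-numbered pairs at 96 h, the change of 1371232_a_at was below that of 1388142_at in 5 of 5 pairs, by -0.33 to -0.13 (exact sign-flip permutation p = 0.0625, the smallest that 5 pairs allow). Over the 12 paired comparisons none passed (adjusted p from 0.583 to 0.688), and 5 pairs cannot reach 0.05.

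**Figure D2:**
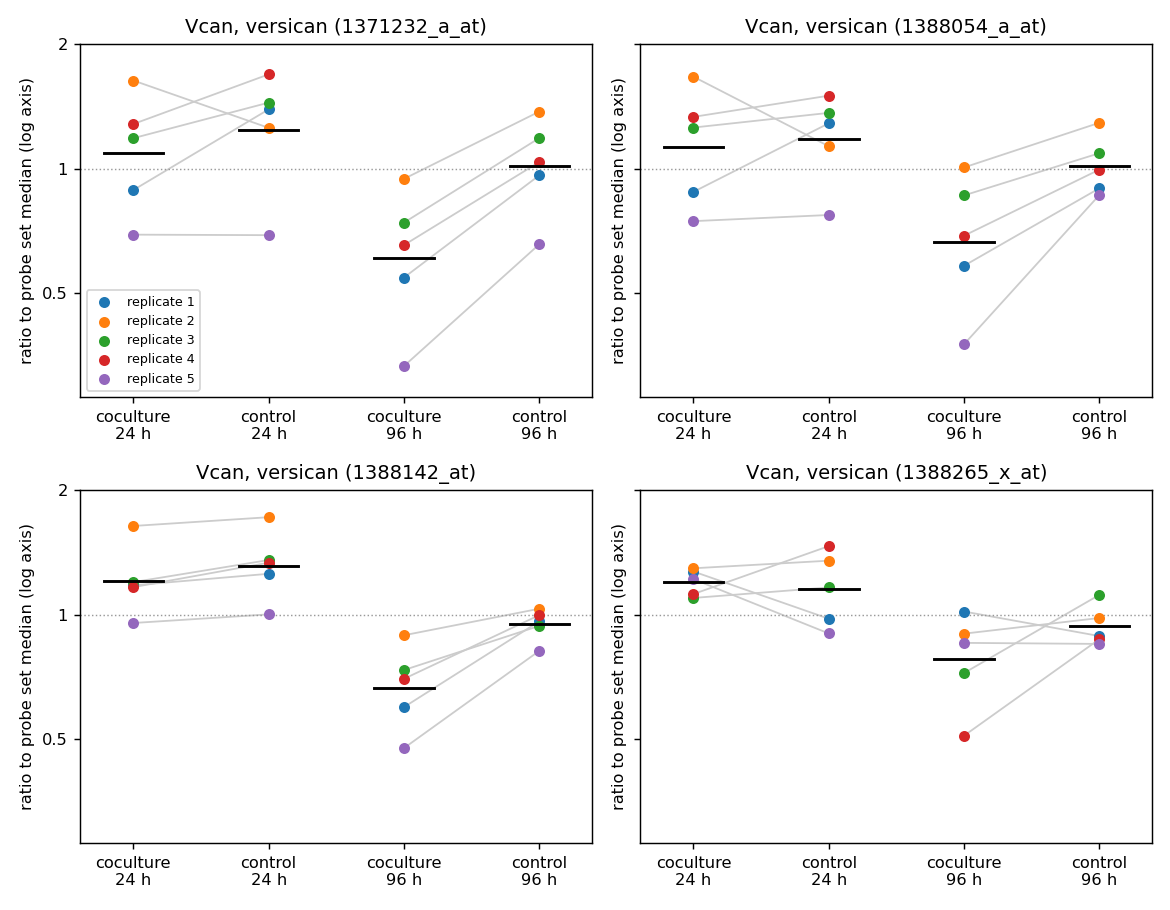
Ratio of the 4 Vcan probe sets in each of the 20 arrays on a log axis, drawn as for Acan and Bcan. For 1388142_at the 5 cocultures at 96 h, 0.476 to 0.892, all lie below the 5 cocultures at 24 h, 0.955 to 1.64; the 1388265_x_at groups at 96 h overlap, with 0.51 to 1.02 in cocultures and 0.85 to 1.12 in controls.

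**Figure D3:**
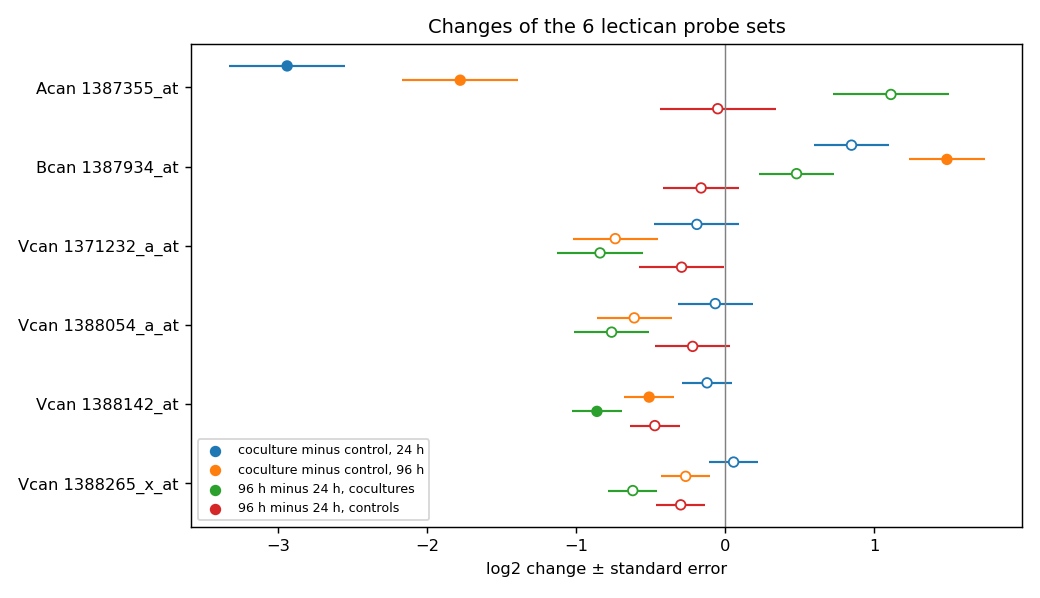
Log2 change ± SE of the 6 lectican probe sets in the coculture comparisons at 24 h and 96 h and in the time comparisons within cocultures and within controls, from limma over 20 arrays, with filled markers where the adjusted p was under 0.05. Acan lies at -2.94 and -1.78 for coculture, Bcan at 0.85 and 1.49, and the Vcan probe sets near 0 at 24 h and between -0.26 and -0.74 at 96 h.

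The genes that act with the lecticans were taken from 5 lists. As for the markers, a gene counts as measured only where a probe set of it stands among the expressed genes. A gene not measured may still have a probe set on the array. Members are counted against the same expressed probe sets, whose median log2 change was -0.13 at 24 h and -0.26 at 96 h. Of the expressed probe sets 5.28% were called in either direction at 24 h and 38.6% at 96 h, and with the block 38.1% and 63.8%. Of the 6 lectican probe sets, 1 was called at 24 h and 3 at 96 h, counts too small to set apart from those shares.

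Hyaluronan synthases, link proteins, tenascins and hyaluronan receptors and hydrolases were measured for 7 of 16 genes, with 8 probe sets. None was called at 24 h (median 0.03), and 3 were called lower with the block. At 96 h (median 0.20) the link protein Hapln2, which binds lecticans to hyaluronan at nodes of Ranvier, rose by 0.50 ± 0.18 (limma adjusted p = 0.0376). The hyaluronidase Hyal2 fell by 0.53 ± 0.17 (limma adjusted p = 0.0248). The other 6 probe sets, of the link protein Hapln1 (0.37), the hyaluronan receptors Hmmr (-0.41) and Cd44 (0.31), the hyaluronidase Hyal3 (0.26 and -0.039) and tenascin-R (Tnr, 0.15), did not pass (limma adjusted p from 0.0639 to 0.793). With the block 4 of the 8 were called higher and 2 lower at 96 h.

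Proteases that cut lecticans and the inhibitors of such proteases were measured for 5 of 15 genes, with 6 probe sets, and none was called at 24 h (median -0.02), against 1 called lower with the block. At 96 h (median -0.25) the protease Adamts9 rose by 0.62 ± 0.23 (limma adjusted p = 0.0434). The metalloprotease inhibitors Timp2 and Timp3 fell by 0.82 ± 0.24 and 0.43 ± 0.16 (limma adjusted p = 0.0176 and 0.0452). The probe sets of Timp2 disagreed: the fall is that of 1386940_at, while 1375144_at changed by -0.07.

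Enzymes that build chondroitin sulfate chains were measured for 12 of 26 genes, with 14 probe sets. None was called at 24 h (median -0.13), and 2 rose and 3 fell at 96 h (median -0.10). With the block 2 rose and 2 fell at 24 h, and 2 rose and 6 fell at 96 h. The polymerising factor Chpf fell by 0.77 ± 0.18 at 96 h (limma adjusted p = 0.00581). The sulfate donor transporter Slc35b2 fell by 0.57 ± 0.20 (limma adjusted p = 0.0370). Ugdh, which makes UDP-glucuronate for the chains, rose by 0.91 ± 0.32 in 1384574_at (limma adjusted p = 0.0351), and its other probe set changed by -0.03. Calls thus lay in both directions. At 96 h the share of the list called was near that of all expressed probe sets, 38.6% without the block and 63.8% with it.

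Among proteoglycans that are no lecticans, 9 of 24 genes were measured with 10 probe sets. The receptor phosphatase Ptprz1, whose secreted form is the proteoglycan phosphacan, rose in both of its probe sets, by 1.41 ± 0.18 and 1.73 ± 0.21 at 24 h (limma adjusted p = 0.000111 and 5.25e-05). At 96 h Ptprz1 rose by 2.30 ± 0.18 and 2.68 ± 0.21. The list's median was 0.13 at 24 h, with 2 called higher and none lower, and 0.25 at 96 h, with 3 called higher and 1 lower. The glypican Gpc2 rose at 96 h by 0.71 ± 0.20 (limma adjusted p = 0.0147), and the syndecan Sdc1 fell by 0.72 ± 0.20 (limma adjusted p = 0.0139). With time, Gpc2 fell in cocultures by 0.92 ± 0.20 (limma adjusted p = 0.0254) and in controls by 1.26 ± 0.20 (limma adjusted p = 0.0113), the only calls with time in any of the 5 lists without the block. Of the expressed probe sets 1.63% were called with time in cocultures and 0.227% in controls in that fit. With the block 2 of the 10 fell with time in cocultures and 4 in controls, in a fit that called 8.66% and 0.715% of all probe sets lower.

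Receptors for chondroitin sulfate and proteins held in the net were measured for 14 of 19 genes, with 33 probe sets. The adhesion molecule Ncam1 rose in 1 of its 8 probe sets, 1378777_at, by 1.18 ± 0.25 at 24 h (limma adjusted p = 0.00919) and by 1.18 ± 0.25 at 96 h (limma adjusted p = 0.00253). At 96 h, with 3 called higher and 2 lower, the adhesion molecule Nrcam fell in 1 of its 4 probe sets by 1.46 ± 0.26 (limma adjusted p = 0.000712) and the growth factor midkine (Mdk), which binds chondroitin sulfate, rose by 0.78 ± 0.18 (limma adjusted p = 0.0053). The list's median was 0.06 at 24 h and -0.05 at 96 h. With the block 2 were called higher and 6 lower at 24 h, and 7 higher and 8 lower at 96 h. In the 4 lists other than that of proteoglycans the block called none with time in controls. With time in cocultures it called 1 higher in the hyaluronan list, 1 lower among the proteases, 1 higher and 1 lower in chain synthesis, and 2 higher and 3 lower among receptors and net-bound proteins.

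**Figure D4:**
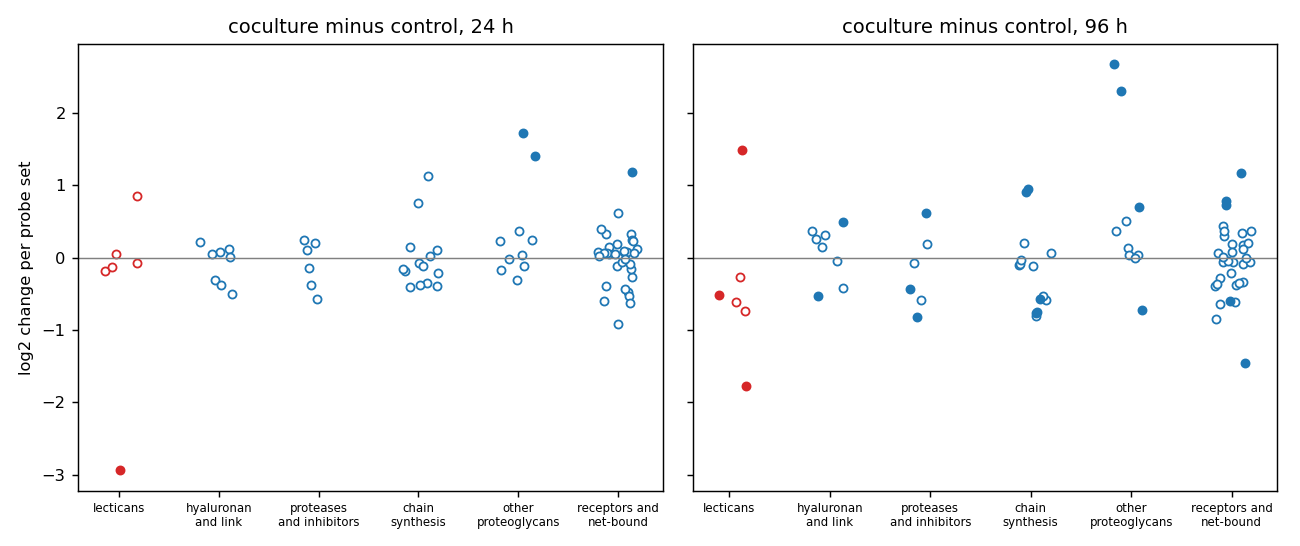
Log2 change in cocultures against controls for each probe set of the lecticans (red) and of the 5 lists (blue), at 24 h on the left and 96 h on the right, with filled markers where the limma adjusted p was under 0.05. Acan is the lowest point among the probe sets drawn at each time, at -2.94 and -1.78, and Ptprz1 the highest at 96 h, at 2.68.

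The genes whose pattern over the 20 arrays was most like each lectican were found by the root-mean-square difference of log2 ratios, among 8472 named genes. For Acan these were Opn3 (0.535), Rgs2 (0.599) and Mfsd4a (0.634), against a median of 1.33 over all those genes. Opn3 is an opsin and Rgs2 a brake on G protein signals. Their log2 changes at 24 h and 96 h were -1.90 and -1.71 for Opn3, -2.13 and -1.86 for Rgs2, and -1.76 and -1.60 for Mfsd4a.

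For Bcan the most alike were Napepld (0.259), Gltp (0.26) and Zfhx3 (0.262), against a median of 0.964. Napepld makes precursors of lipid messengers, Gltp moves glycolipids and Zfhx3 is a transcription factor. For Vcan, as the mean of its probe sets, they included the splicing factor Hnrnpm (0.157) and the histone chaperone Nasp (0.169), against a median of 0.42.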

How the data were processed

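Rat subplate cultures on 20 Affymetrix arrays, 5 per group, were analysed. The deposited values are ratios; the authors ran RMA on the 20 arrays jointly and divided each probe set by its median, per the file headers (1 within 0.001 for 31069 of 31099 probe sets). No version of RMA or MAS5 is given in the submitters' processing notes, which name both. A second deposited table names probe sets called present in 10 of 20 arrays (17243). Ratios carry no signal over background, so no filter on dim probes was applied before the main fit. The lecticans, the lists and the genes of similar pattern were taken from that second table alone, and so had passed its present calls.

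Log2 ratios were fitted in limma 3.58.1 (R 4.3.3) with 1 mean per group and 16 residual degrees of freedom, adjusted over 31042 probe sets. The array's own 57 controls were not tested. Symbols and promoters came from RefSeq tables of GRCr8. The members and lists were chosen with earlier results of these data known. Every lectican probe set is named. Other genes are named where they stand in the hyaluronan list (its members that did not pass were added after their values were seen), or had one of the 3 smallest p in another list. For each lectican the 3 genes of most similar pattern are named, except 1 that is not reported here.

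Deviations from the group means correlated by 0.243 to 0.855 in 30 pairs of arrays sharing a number (median 0.524). In 120 other pairs the correlations ran from -0.846 to 0.737 (median -0.23), so the ranges overlapped. The blocked fit takes the numbers as pairs. Alternatives were a fixed or random block, array weights, loess, other sets of probe sets or arrays, and a hybridisation covariate. Single values were compared with exact permutation tests, which take no account of the replicate numbers except in the paired test between Vcan probe sets. The pipeline was tested on simulated data in which arrays varied independently. Those data held neither the shared deviations of same-numbered arrays nor the shift of the hybridisation controls, so the test does not bear on either. With 5 arrays a group, precision is limited by their number.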

Additional observations from a re-analysis of the deposited data

Results flagged for a closer look

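Within each group of 5 arrays, the gap between the highest or lowest array and its nearest neighbour was set against the whole range of the group on the log2 scale, with 0.71 as the critical value. Of 24 groups tested, 2 had an array that stood apart, where chance flags about 1 in 20. Both were the control numbered 5 at 96 h. Its Acan ratio of 0.866 was far below the other 4 controls, with a gap of 0.949 of the range, and its Bcan ratio of 0.997 was far above them, with a gap of 0.769 of the range. Without the 4 arrays numbered 5, the coculture change at 96 h was -1.98 for Acan and 1.46 for Bcan (limma adjusted p = 7.07e-06 and 1.92e-05).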

How the results depend on the processing

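Acan was lower and Bcan higher in cocultures at both times under every alternative run. Acan was called in all 10 fits that left out 1 array at 24 h (adjusted p from 4.33e-05 to 0.000784) and at 96 h (0.000205 to 0.0129), and Bcan in all 10 at 96 h (0.000192 to 0.00246). The share of all expressed probe sets called also moved with the setting. It was 5.28% at 24 h and 38.6% at 96 h in the main fit, and 38.1% and 63.8% with the fixed block. The lectican counts that follow are not set against such shares for the other settings. Of the 6 lectican probe sets, 1 was called at 24 h. It was 2 with a fixed or random replicate block, array weights, loess, 1 value per gene or without the arrays numbered 5, and 0 with the block and the hybridisation covariate together. At 96 h, 3 were called, and 5 with the fixed or random replicate block. It was 6 with array weights or 1 value per gene (which the 4 Vcan probe sets share). It was 4 with annotated expressed probe sets alone or without the arrays numbered 5. Where a change of 1.5-fold was also required it was 2 (without Vcan 1388142_at). It was 1 with the covariate and 0 with block and covariate. Leaving out 1 array gave 2 to 5, the 5 without cocultured replicate 2 or 3. With time in controls 0 were called, and 1 with either replicate block, array weights, the covariate or both. With time in cocultures 1 was called, 6 with the fixed replicate block, 5 with the random block, array weights, the covariate or without the arrays numbered 5, 4 with loess or 1 value per gene and 0 with only the groups compared; leaving out 1 array gave 1 to 2, the 2 without cocultured replicate 5 at 24 h. The difference of the coculture effects gave 0 calls, and 1 (Acan) with array weights. The block changed no lectican call that is not given here or in the report.

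Signs turned where changes were small. At 24 h, 1388265_x_at was -0.14 with array weights, -0.080 with 1 value per gene and -0.038 without the arrays numbered 5, and 1388054_a_at was 0.049 with loess. With the covariate 1371232_a_at, 1388054_a_at and 1388142_at were 0.41, 0.42 and 0.18, and 0.35, 0.31 and 0.064 with block and covariate. At 96 h, 1371232_a_at was 0.19 with the covariate and 0.085 with both, 1388054_a_at 0.14 with the covariate, and 1388265_x_at 0.57 with both. Acan with time in controls was 0.16 with array weights, 0.0059 with loess and 0.035 without the arrays numbered 5. Leaving out 1 array gave -0.032 to 0.14 for 1388265_x_at and -0.22 to 0.083 for 1388054_a_at at 24 h, and -0.34 to 0.33 for Acan with time in controls. Block and covariate together, the fit without arrays numbered 5, and the paired test between Vcan probe sets were chosen after seeing the data, and the cause of these shifts was not tested.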
